A study of Rattus norvegicus and Mus musculus with 74 samples.

Results

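Distal Polycomb regions were analysed in brain cortex of mice and rats: stretches that hold the repressive mark H3K27me3 but no promoter, no CpG island and none of 3 other histone marks in control animals. A region of the deposited tables was taken when it listed 0 promoters and 0 CpG islands, when an H3K27me3 interval was called there in at least 2 of 3 control libraries, and when no H3K4me3, H3K9Ac or H3K9me3 interval was called there in any control library. This gave 2259 of 60110 regions in mouse and 4603 of 72824 regions in rat, and the species were kept apart throughout. Control libraries chose the regions, so every control value below is a description, and only the exposed groups are compared by a test. The control libraries still enter the estimate of spread and the filter of that test.

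The mouse groups were C57BL/6J animals exposed before birth to poly I:C, which mimics viral double-stranded RNA, and treated with TAK-418, which blocks the H3K4 demethylase LSD1; animals exposed to poly I:C and treated with vehicle; and healthy vehicle-treated controls. The rat groups were Sprague-Dawley animals injected with valproate (VPA) before birth and treated with TAK-418, VPA animals treated with vehicle, and healthy vehicle-treated controls. Each group had 3 ChIP-seq libraries for each of 4 marks; the labels used here give no age, sex, dose or number of animals per library. Nothing in the labels states whether the libraries of a group are different animals. A p-value here therefore reflects the scatter among the libraries at hand, which could be technical. In bulk tissue, fewer cells with a mark and less mark per cell cannot be told apart.

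H3K27me3 is laid down by Polycomb repressive complex 2 and is best known for holding the genes of body patterning silent in cells that do not need them. In neurons much of it sits over CpG islands of such genes, from which it can spread into the flanking sequence. H3K4me3 marks active or poised promoters, H3K9Ac marks active promoters and enhancers, and H3K9me3 marks constitutive heterochromatin. LSD1 removes methyl groups from H3K4, and it works within the CoREST repressor complex beside histone deacetylases.

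Among the small genes listed with these regions were microRNA genes, of which mouse listed 2 (Mir802 and Mir147) of the 456 in its table and rat 2 (Mir802 and Mir224) of 275. Mir802, a microRNA gene studied in mouse liver for its part in glucose metabolism, was the one listed in both species. The region downstream of it was 28399 bp long in mouse (chr16:93377000-93405399, mm10) and 10799 bp long in rat (chr11:37168400-37179199, rn5). The rat sequences are shown because they identify the genes beside the regions; they come from RefSeq on another build, GRCr8, and capitals mark the seed, bases 2 to 8, of a mature microRNA. Of the 2 rat genes both were found there, Mir802 as a hairpin (chr11:46112362-46112457, plus strand) and Mir224 with its mature forms (chrX:155107130-155107211 for the hairpin, minus strand).
Mir802 hairpin: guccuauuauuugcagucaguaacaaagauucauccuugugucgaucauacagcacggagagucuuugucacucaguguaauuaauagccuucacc
rno-miR-224-5p: cAAGUCACuagugguuccguuu
rno-miR-224-3p: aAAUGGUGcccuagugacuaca
The Mir224 region lies on chromosome 1 in the rn5 table (chr1:147957800-147960599, inside Gabre, a GABA-A receptor subunit gene), whereas GRCr8 places the gene on chromosome X. At Mir802 in rat, H3K27me3 mean signal was 9.01, 4.41 and 3.96 in the TAK-418 libraries, 4.86, 6.32 and 4.13 in vehicle libraries and 4.86, 5.44 and 3.28 in controls, and an interval was called in all 9. In mouse the same gene had 2.92, 3.47 and 3.79 in TAK-418 libraries, 8.07, 6.22 and 2.39 in vehicle libraries and 3.67, 5.72 and 6.00 in controls. The groups overlapped at Mir802 in both species.

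The tables hold a mean and a highest signal per region with no read counts, so the depth of each library is unknown. A value below is the mean signal of a region in the deposited units unless a log2 change is named. A log2 change is the TAK-418 mean minus the vehicle mean of log2(mean signal + 1), from limma, and a region was tested for a mark when at least 3 of its 9 libraries had an interval there. H3K9Ac intervals covered brain markers: all 7 cortical neuron markers in mouse and 6 of 7 in rat had one in at least 2 of 3 controls, as did all 3 astrocyte and all 3 oligodendrocyte markers in both species; of 2 microglia markers 1 did in mouse and both did in rat. Among markers of other tissues, Kl of the choroid plexus (rat), Apoa1 of the liver (mouse) and Acta1 of skeletal muscle (both species) also had one, and Ttr, Folr1, Alb, Myh4, Hbb-bt and Alas2 had none or were not listed. H3K27me3 libraries of 1 group differed widely. In mouse the numbers of regions with an interval ranged from 3236 to 5623 in TAK-418 libraries, 1916 to 13596 in vehicle libraries and 4764 to 9410 in controls; in rat they ranged from 11423 to 19552, 10998 to 15094 and 8339 to 16546 for the same groups.

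The distal Polycomb regions were longer than distal regions without H3K27me3 and closer to promoter regions, Polycomb-marked ones included. Their median length was 15199 bp in mouse and 9799 bp in rat, between that of H3K27me3 regions with a promoter or CpG island (27999 bp in mouse, 17999 bp in rat) and that of distal regions without H3K27me3 in 2 controls (4799 bp and 3799 bp). Distal H3K27me3 regions that had another control mark were longer than the members, at 24999 bp and 17599 bp. The quartiles of length were 10599 and 22599 bp in mouse, where 72 reached at least 50000 bp, and 6399 and 15399 bp in rat, where 35 did. Together they covered 42.4 Mb of mouse and 56.6 Mb of rat sequence. The longest was an intergenic mouse region of 144599 bp (chr11:114209200-114353799) 1201 bp from the marked promoter region of 1700092K14Rik. The second was 115799 bp, listed as inside Wdfy4 and downstream of Lrrc18 (chr14:33012800-33128599). In rat the longest 2 measured 116999 bp (chr10:69193000-69309999), 601 bp from the promoter region of Tmem132e, and 97799 bp (chr16:82141800-82239599, no listed gene).

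The nearest H3K27me3 region with a promoter or CpG island lay a median of 78401 bp from a distal Polycomb region in mouse and 62001 bp in rat, against 455201 bp and 293601 bp for distal regions without H3K27me3. Within 10000 bp of one stood 434 mouse members (19.2%) and 970 rat members (21.1%), against 4.03% and 5.33% of the distal regions without the mark. When the marked promoters were defined by calls in at least 3 of the 6 exposed libraries, which the choice of regions had not used, the medians were 88801 bp against 506601 bp in mouse and 60601 bp against 298801 bp in rat. Members were also closer to any region with a promoter, marked or not. Those medians were 39801 bp against 86201 bp in mouse and 47601 bp against 93601 bp in rat. The promoter region nearest to a distal Polycomb region was itself an H3K27me3 region for 1264 mouse members (56.0%) and 2725 rat members (59.2%), against 21.9% and 29.1% of the other distal regions. Neighbouring regions are not independent of each other, so these shares are given without a test. Distal H3K27me3 regions that had another control mark lay somewhat closer still, at medians of 56801 bp in mouse and 46801 bp in rat.

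**Figure D1:**
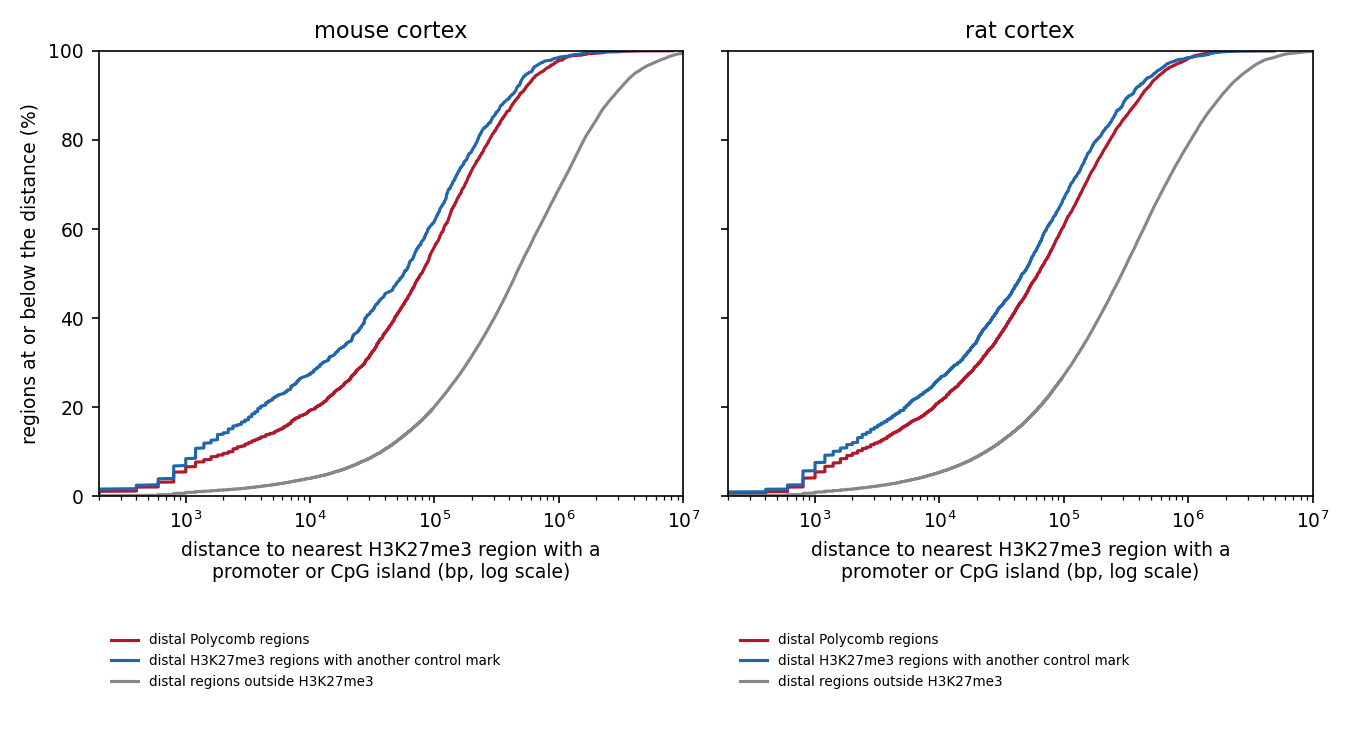
Cumulative share of regions (y axis, %) by distance to the nearest H3K27me3 region with a promoter or CpG island (x axis, bp, log scale), mouse left and rat right. The red line of the distal Polycomb regions reaches 40.7% in mouse and 45.4% in rat at 50000 bp, where the grey line of distal regions without H3K27me3 is at 12.4% and 17.0%; the blue line of distal H3K27me3 regions with another control mark lies just above the red one.

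Most of the regions had no gene: the tables listed none for 1364 of 2259 in mouse (60.4%) and 3026 of 4603 in rat (65.7%), close to the 67.3% and 69.7% of distal regions without H3K27me3. Of those with a gene, 590 in mouse and 1111 in rat lay inside one, 302 and 440 downstream of one and 59 and 119 upstream. Chromosome X held 11 mouse members (0.487%) and 57 rat members (1.24%), whereas it held 3.11% and 2.51% of distal regions without the mark. The other H3K27me3 classes were low there as well: 0.289% and 1.10% of distal ones with another control mark, and 0.946% and 1.66% of those with a promoter or CpG island. Members made up the largest share of a chromosome's regions on chromosome 8 in mouse (145 of 2865, 5.06%) and on chromosome 19 in rat (216 of 1758, 12.3%).

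Genes of body patterning stood both in and beside the regions. Of 127 homeobox and other developmental transcription factor genes in the mouse table, 8 (6.30%) had a member: Ebf1, Gata3, Gata6, Lmx1a, Pax5, Pax8, Pax9 and Tbx15. In rat it was 16 of 121 (13.2%), among them Dlx2, Irx3, Irx5, Meis1, Pax3 and Lhx8. Over all genes the share was 764 of 23362 (3.27%) in mouse and 1191 of 20110 (5.92%) in rat. Hox genes, whose promoters are dense in CpG islands, had a member at Hoxd1 only (1 of 39) in mouse and at 0 of 30 in rat. The nearest marked promoter or island region listed a gene of the transcription factor list for 158 mouse members (6.99%) and 301 rat members (6.54%), against 4.78% and 3.03% of distal regions without H3K27me3.

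Among the 10 strongest mouse members, those near Pax2 and Dbx1 flanked such genes. The strongest of all lay 532401 bp from its nearest marked promoter region, at Lztfl1. Others had theirs at Casp16, Mettl17, Arhgef7, Hpgd or Glrx3. A region of 47999 bp on chromosome 19 (chr19:44864600-44912599) lay 2601 bp from the marked promoter region of Pax2, a regulator of kidney and midbrain development. Its H3K27me3 mean signal was 4.58, 5.75 and 5.59 in TAK-418 libraries, 14.2, 10.2 and 3.53 in vehicle libraries and 6.05, 8.94 and 9.37 in controls. Another strong region measured 34599 bp (chr7:49673400-49707999) and lay 201 bp from the marked promoter region that lists Dbx1, a regulator of ventral spinal cord interneurons, and Nav2. That region had 4.25, 5.37 and 5.92 in TAK-418 libraries, 14.2, 10.1 and 3.38 in vehicle libraries and 5.62, 8.84 and 9.42 in controls. In both, vehicle libraries held the highest and the lowest value of all 9. A region of 29399 bp with no listed gene (chr13:72281400-72310799) had its nearest promoter region at Irx1, 285801 bp away, and the nearest marked one at Irx2, 290601 bp away; both encode patterning homeodomain proteins. Its values were 4.49, 5.35 and 5.93 in TAK-418 libraries, 14.1, 10.1 and 3.51 in vehicle libraries and 6.13, 9.07 and 9.20 in controls, and here too vehicle libraries held the highest and the lowest value. At the Hoxd cluster the region downstream of Hoxd1 (chr2:74774000-74781199, 401 bp from the marked cluster) was weaker, at 2.12, 2.51 and 2.79 in TAK-418 libraries, 5.59, 4.39 and 2.35 in vehicle libraries and 2.83, 4.30 and 4.34 in controls.

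Pax5, the master regulator of B cells that also patterns the midbrain, held the strongest mouse member listed with a gene of that list. It was 72599 bp long and downstream of the gene (chr4:44479800-44552399), with 3.53, 4.64 and 4.93 in TAK-418 libraries, 12.1, 8.37 and 2.77 in vehicle libraries and 4.52, 7.92 and 7.80 in controls. Lmx1a, needed for midbrain dopamine neurons, followed with 3.99, 3.78 and 4.50 in TAK-418 libraries, 10.6, 8.79 and 2.84 in vehicle libraries and 4.55, 6.69 and 7.83 in controls (chr1:167785600-167796199). In rat the strongest of the list lay upstream of Pax8, a thyroid and kidney regulator (chr3:1583800-1588799), with 12.7, 6.03 and 5.71 in TAK-418 libraries, 6.03, 9.71 and 5.92 in vehicle libraries and 7.71, 7.92 and 5.08 in controls. Ebf1, which directs B cell fate and striatal neuron differentiation, carried a rat member of 89999 bp inside the gene (chr10:23666000-23755999) with 10.0, 5.31 and 4.90 in TAK-418 libraries, 5.62, 7.85 and 4.77 in vehicle libraries and 5.40, 5.16 and 3.54 in controls. Its relative Ebf2 had 9.63, 6.32 and 5.65 in TAK-418 libraries, 5.66, 7.43 and 4.79 in vehicle libraries and 5.49, 4.43 and 4.37 in controls (chr15:47560600-47576799). In every one of these genes the TAK-418 and vehicle ranges overlapped.

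**Figure D2:**
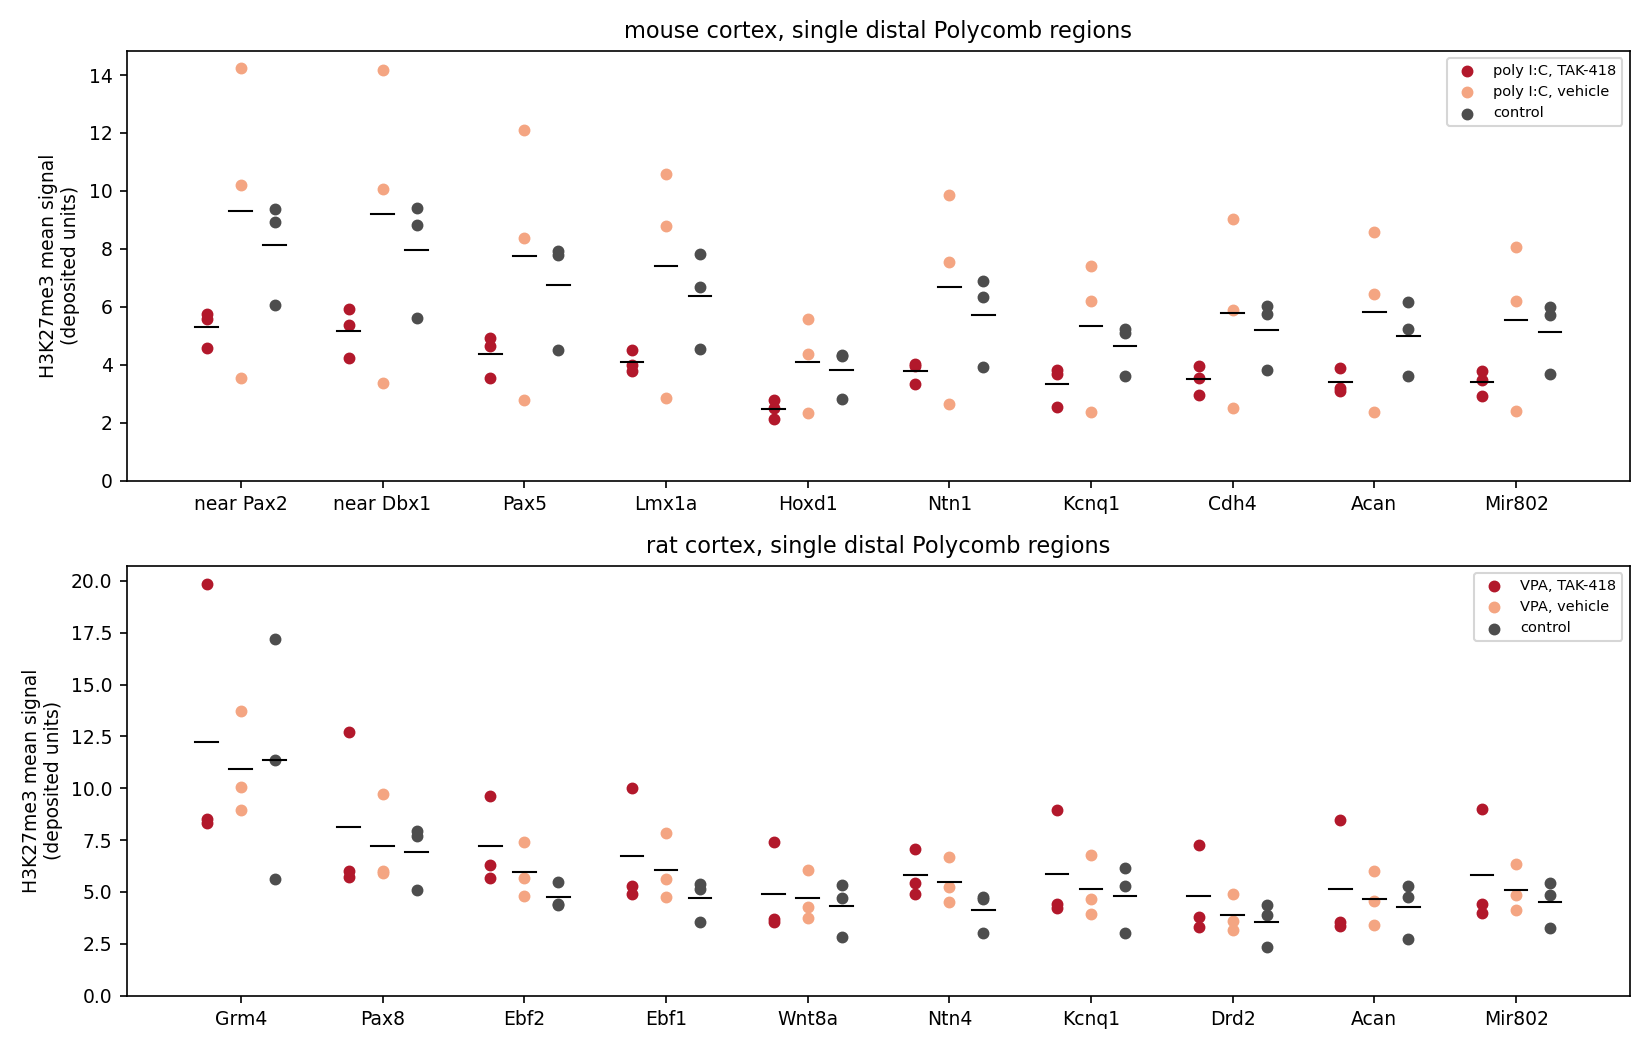
H3K27me3 mean signal (y axis, deposited units) at 10 mouse (top) and 10 rat (bottom) distal Polycomb regions, named by their listed or neighbouring gene; points are libraries coloured by group, TAK-418 left of vehicle left of control, and black bars are means of 3. In mouse the vehicle points lie farthest apart at every region shown; in rat 1 TAK-418 library stands above the others, as at Pax8 with 12.7.

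A few long genes carried many of the regions; these genes were picked after their counts had been seen. Alk, a receptor tyrosine kinase of the developing nervous system, listed 12 members in mouse and 8 in rat. Sox6, a transcription factor of interneuron, cartilage and red cell development, listed 11 members in mouse (324589 bp in all, of 20 regions listing the gene) and 12 in rat (201388 bp, of 25). Zfp521 had 7 members in each species and Ebf1 had 7 in mouse and 6 in rat. Wwox had 6 and 8, and Sdk1, a synaptic adhesion molecule, had 7 in mouse. Rat genes with many members also included Ptprm with 10, Megf11 with 8 and Reln with 7, Reln encoding the secreted guide of cortical layering. Most listed genes had a single member, 643 of 764 in mouse and 918 of 1191 in rat.

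The strongest Sox6 region in mouse (chr7:115819000-115839999) had H3K27me3 of 3.01, 3.77 and 3.70 in TAK-418 libraries, 8.83, 6.61 and 2.41 in vehicle libraries and 4.35, 5.51 and 6.41 in controls. In rat the strongest (chr1:193109800-193155999) had 7.21, 4.09 and 3.72 in TAK-418 libraries, 3.91, 5.30 and 3.27 in vehicle libraries and 3.98, 4.05 and 2.73 in controls. Over all Sox6 members the mean of the 6 exposed libraries ran from 3.44 to 4.72 in mouse and from 3.04 to 4.58 in rat. Of 14458 gene symbols found in both tables, 530 listed a member in mouse and 955 in rat; 238 did so in both, which is 44.9% of the mouse genes and 24.9% of the rat genes. For comparison, 6.61% of all 14458 had a rat member and 3.67% a mouse member; gene length, which adds chances to be listed, was not taken into account. Among the shared ones were Pax5, Pax8, Gata6 and Lmx1a, the netrin gene Ntn1, the kainate receptor gene Grik4, and the matrix genes Acan, Tnc and Col6a3.

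Signalling and guidance genes had members more often in rat, as did genes in general. Over all genes the share was 5.92% in rat and 3.27% in mouse, and a difference particular to these lists was not tested. Of the Wnt, FGF, BMP and Hedgehog list 0 of 60 mouse genes and 6 of 58 rat genes (10.3%) had a member, in rat Bmp2, Frzb, Gli2, Nog, Wnt4 and Wnt8a, which span ligands, secreted inhibitors and a transcriptional effector. Wnt8a, a ligand of early embryo patterning, had 7.43, 3.54 and 3.70 in TAK-418 libraries, 4.28, 6.05 and 3.75 in vehicle libraries and 4.72, 5.36 and 2.83 in controls (chr18:27047600-27054599). Axon guidance genes were at 1 of 53 in mouse (Ntn1) and 8 of 51 (15.7%) in rat: Ephb1, Nrp2, Ntn1, Ntn4, Sema3g, Sema5b, Slit1 and Slit3. The mouse Ntn1 region of 62799 bp (chr11:68251800-68314599) had 3.34, 3.95 and 4.04 in TAK-418 libraries, 9.84, 7.54 and 2.65 in vehicle libraries and 3.94, 6.34 and 6.89 in controls. Rat Ntn4 was the strongest of that list at 7.09, 5.43 and 4.88 in TAK-418 libraries, 5.25, 6.69 and 4.50 in vehicle libraries and 4.68, 4.75 and 3.00 in controls (chr7:34658800-34668799). The TAK-418 and vehicle libraries overlapped at all 3.

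Structural genes of cartilage, matrix and muscle, tissues foreign to cortex, had the highest share of the 15 lists in both species: 8 of 49 (16.3%) in mouse and 11 of 44 (25.0%) in rat. Acan, the aggrecan of cartilage that also forms perineuronal nets, carried a member inside the gene in each species. In mouse it had 3.08, 3.21 and 3.90 in TAK-418 libraries, 8.60, 6.46 and 2.38 in vehicle libraries and 3.62, 5.23 and 6.15 in controls (chr7:79107800-79120199). In rat it had 8.45, 3.36 and 3.57 in TAK-418 libraries, 4.54, 6.02 and 3.41 in vehicle libraries and 4.75, 5.29 and 2.73 in controls (chr1:141774000-141782399). Cadherin genes were at 3 of 32 in mouse (Cdh1, Cdh13, Cdh4) and 4 of 31 in rat (Cdh1, Cdh22, Fat1, Fat2), Cdh1 being the epithelial cadherin.

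Genes of neuronal signalling were also counted. Potassium channels were at 3 of 46 in mouse and 4 of 44 in rat, with Kcnq1 and Kcnn3 in both. The single mouse Kcnq1 member (chr7:143354800-143368599) lay 801 bp from the marked region that lists Cdkn1c and Phlda2, imprinted growth regulators. Of 3 rat Kcnq1 members the strongest (chr1:223366800-223415599, 48799 bp) lay 2001 bp from the matching region and another lay 66601 bp from it. That strongest rat member had 8.97, 4.44 and 4.24 in TAK-418 libraries, 4.65, 6.78 and 3.96 in vehicle libraries and 5.30, 6.16 and 3.01 in controls, and the mouse one had 2.56, 3.67 and 3.82 in TAK-418 libraries, 7.42, 6.20 and 2.38 in vehicle libraries and 3.61, 5.10 and 5.25 in controls. Glutamate and GABA receptors were at 2 of 40 in mouse (Grik3, Grik4) and 2 of 39 in rat (Grik4, Grm4). Rat Grm4, a presynaptic glutamate receptor gene, stood out among them with 19.9, 8.51 and 8.33 in TAK-418 libraries, 10.1, 13.7 and 8.97 in vehicle libraries and 11.3, 17.2 and 5.61 in controls (chr20:9019200-9029199).

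Receptors for monoamines, acetylcholine and peptides gave Ntsr1, the neurotensin receptor, in mouse (1 of 57) and the dopamine receptor genes Drd2 and Drd3 in rat (2 of 54). Drd2, expressed mainly in striatum, had 7.28, 3.79 and 3.31 in TAK-418 libraries, 3.62, 4.90 and 3.16 in vehicle libraries and 3.91, 4.36 and 2.34 in controls (chr8:52330400-52359799). Neurexin, neuroligin and contactin genes had none (0 of 43 and 0 of 38), nor had LSD1 and its CoREST partners (0 of 18 and 0 of 17). Polycomb subunit genes had 1 each, Aebp2 in mouse and Pcgf5 in rat. Ribosomal protein genes had 1 of 78 (Rpl3) and 1 of 80 (Rpl17). Olfactory receptor genes had 2 of 833 and 0 of 779, and vomeronasal receptor genes 1 of 240 in mouse.

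In rat the rank of signal was led by shorter regions. There 70 members (1.52%) had an H3K27me3 mean of at least 10 over the 6 exposed libraries, with a median length of 3299 bp against 9999 bp for the rest; 53 of them had no gene, a class that held 65.7% of all rat members, and 14 lay on chromosome 20, which held 113 of all 4603. Of the 10 strongest, 1 on that chromosome was listed with RT1-CE2 and 1 had RT1-T18 as its nearest promoter region, both genes of the rat major histocompatibility complex. In mouse 1 member reached that level. The highest rat region (chrX:106938200-106947999) had H3K27me3 of 93.1, 49.7 and 47.9 in TAK-418 libraries, 53.9, 69.3 and 40.3 in vehicle libraries and 55.5, 74.1 and 34.5 in controls. Its H3K9Ac signal was also high, at 12.1, 16.2 and 10.6 in TAK-418 libraries, 24.0, 26.9 and 11.6 in vehicle libraries and 11.0, 7.90 and 9.45 in controls, yet an interval was called in 1 vehicle library and in no other. The single mouse region (chr9:124256200-124258199) likewise had H3K9Ac of 9.45, 10.5 and 5.07 in TAK-418 libraries, 9.11, 7.12 and 9.19 in vehicle libraries and 12.0, 24.1 and 11.2 in controls, with an interval in none of them, and H3K27me3 of 14.4, 16.8 and 22.3 in TAK-418 libraries, 41.5, 31.7 and 13.4 in vehicle libraries and 19.0, 28.6 and 27.5 in controls. In such regions the absence of a call therefore did not mean a low signal. Over the 70 rat regions the medians of the exposed means were 1.47 for H3K4me3, 2.78 for H3K9Ac and 2.37 for H3K9me3, against 1.28, 2.00 and 1.89 for the other members; the input signal is not part of the tables, and the share of mappable sequence in these regions was not tested.

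Other strong rat members lay next to named genes. A region 1201 bp from the marked promoter of Ngfr, the p75 neurotrophin receptor gene (chr10:83262600-83271399), had H3K27me3 of 59.8, 24.7 and 26.0 in TAK-418 libraries, 32.5, 44.8 and 26.0 in vehicle libraries and 36.2, 44.4 and 16.2 in controls. In mouse, a region of 23199 bp on chromosome 8 (chr8:11908200-11931399), with Arhgef7 listed at its nearest marked promoter, had 4.43, 5.54 and 6.21 in TAK-418 libraries, 15.1, 10.3 and 3.31 in vehicle libraries and 5.69, 9.57 and 10.1 in controls. Apart from these extremes the members formed a narrow band: the quartiles of the mean over exposed libraries were 3.64 and 4.26 in mouse and 3.48 and 4.67 in rat.

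Across libraries the members moved as a block. The median member had H3K27me3 of 2.70, 3.06 and 3.31 in mouse TAK-418 libraries, 6.98, 5.18 and 2.35 in vehicle libraries and 3.29, 4.82 and 4.95 in controls. In group means this was 3.02 ± 0.305 with TAK-418, 4.83 ± 2.33 with vehicle and 4.35 ± 0.927 in controls (SD, n = 3 each). The vehicle libraries spanned the full range, so the TAK-418 libraries lay within it. In rat the median member had 6.39, 3.33 and 3.05 in TAK-418 libraries, 3.42, 4.62 and 2.91 in vehicle libraries and 3.80, 4.42 and 2.39 in controls, or 4.26 ± 1.85, 3.65 ± 0.878 and 3.54 ± 1.04 by group. All 3 rat groups overlapped.

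Single members followed these library medians closely. The median member's SD between mouse vehicle libraries was 0.650 on the log2(signal + 1) scale as deposited and 0.0758 once each library's median over the members was subtracted; for rat TAK-418 libraries it was 0.489 and 0.0911. Promoter and island regions with H3K27me3 moved with them, with medians of 2.96, 3.42 and 3.65 in mouse TAK-418 libraries and 7.92, 5.84 and 2.59 in vehicle libraries. The median of distal regions without the mark ranged only from 1.59 to 1.66 and from 1.61 to 2.16 in those libraries. In each of the 6 exposed libraries of each species the median member stood above the median of these unmarked distal regions.

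**Figure D3:**
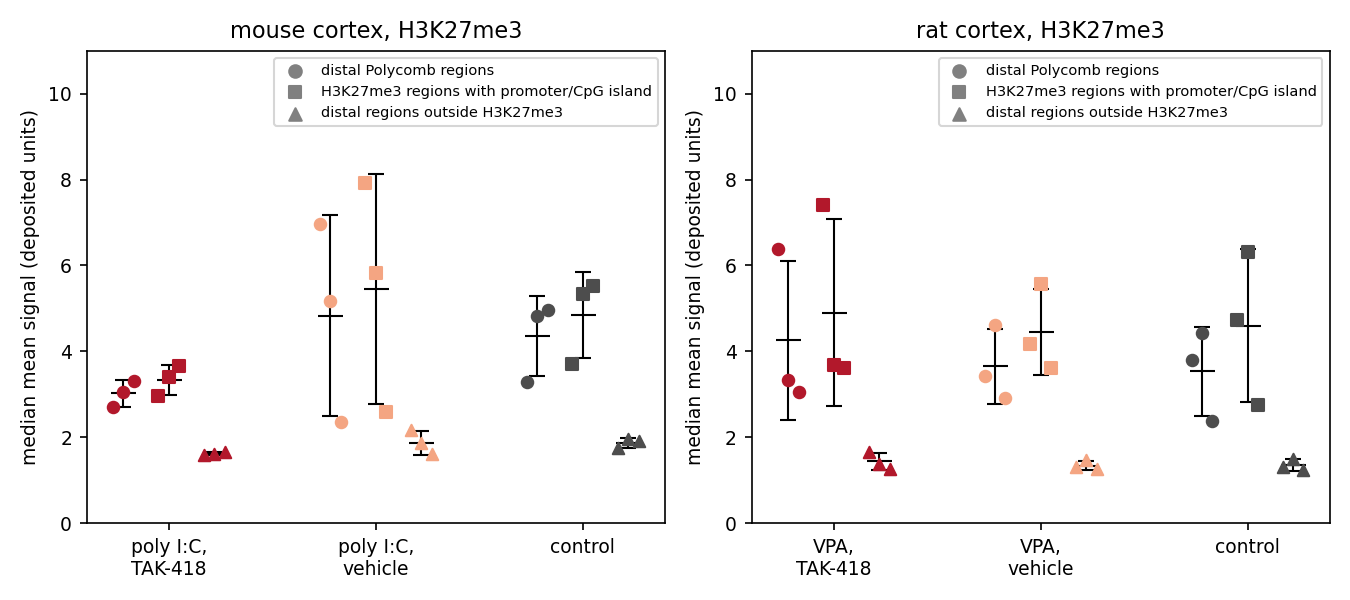
Median H3K27me3 mean signal (y axis, deposited units) per library of distal Polycomb regions (circles), H3K27me3 regions with a promoter or CpG island (squares) and distal regions without H3K27me3 in 2 controls (triangles), by group; black bars are the mean ± SD of 3 libraries. Circles and squares rise and fall together between libraries, from 2.35 to 6.98 among mouse vehicle circles, while triangles stay between 1.24 and 2.16.

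Calls of an H3K27me3 interval at the members were correspondingly uneven. Of the mouse members 18.5%, 41.5% and 51.6% had a call in the TAK-418 libraries, 97.9%, 93.1% and 4.60% in vehicle libraries and 39.9%, 98.0% and 98.7% in controls. Of 4603 rat members, 4484, 3240 and 3332 had one in TAK-418 libraries, 3562, 4106 and 3127 in vehicle libraries and 4538, 4433 and 2325 in controls. Outside the controls that chose them, 2240 members in mouse (99.2%) and 4538 in rat (98.6%) had a call in at least 1 exposed library, against 24.3% and 29.2% of all regions. A call in at least 4 of 6 was found at 35.6% of mouse and 76.8% of rat members, against 7.50% and 16.1% of all regions. All 6 exposed libraries called it at 83 mouse members (3.67%) and 2423 rat members (52.6%), against 37.0% and 75.7% of promoter or island regions with H3K27me3.

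The threshold of 2 control calls cut through a continuum. Of the mouse members 825 had 3 control calls and 1434 had 2, while 1792 regions just outside had 1; the medians of their exposed-library means were 4.17, 3.79 and 3.50, their median lengths 19999, 13199 and 8199 bp. A call in at least 3 of 6 exposed libraries was found at 87.4%, 45.7% and 8.59% of them. In rat the same classes held 2090, 2513 and 3167 regions with medians of 4.51, 3.63 and 3.28, lengths of 13199, 7999 and 4399 bp and shares of 99.3%, 75.8% and 24.5%. Without H3K27me3 control library 2 or 3 the mouse rule kept 871 or 855 regions, and without control library 1 or 2 the rat rule kept 2155 or 2260. The rule then required a call in every remaining H3K27me3 control library, which is stricter than 2 of 3.

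**Figure D4:**
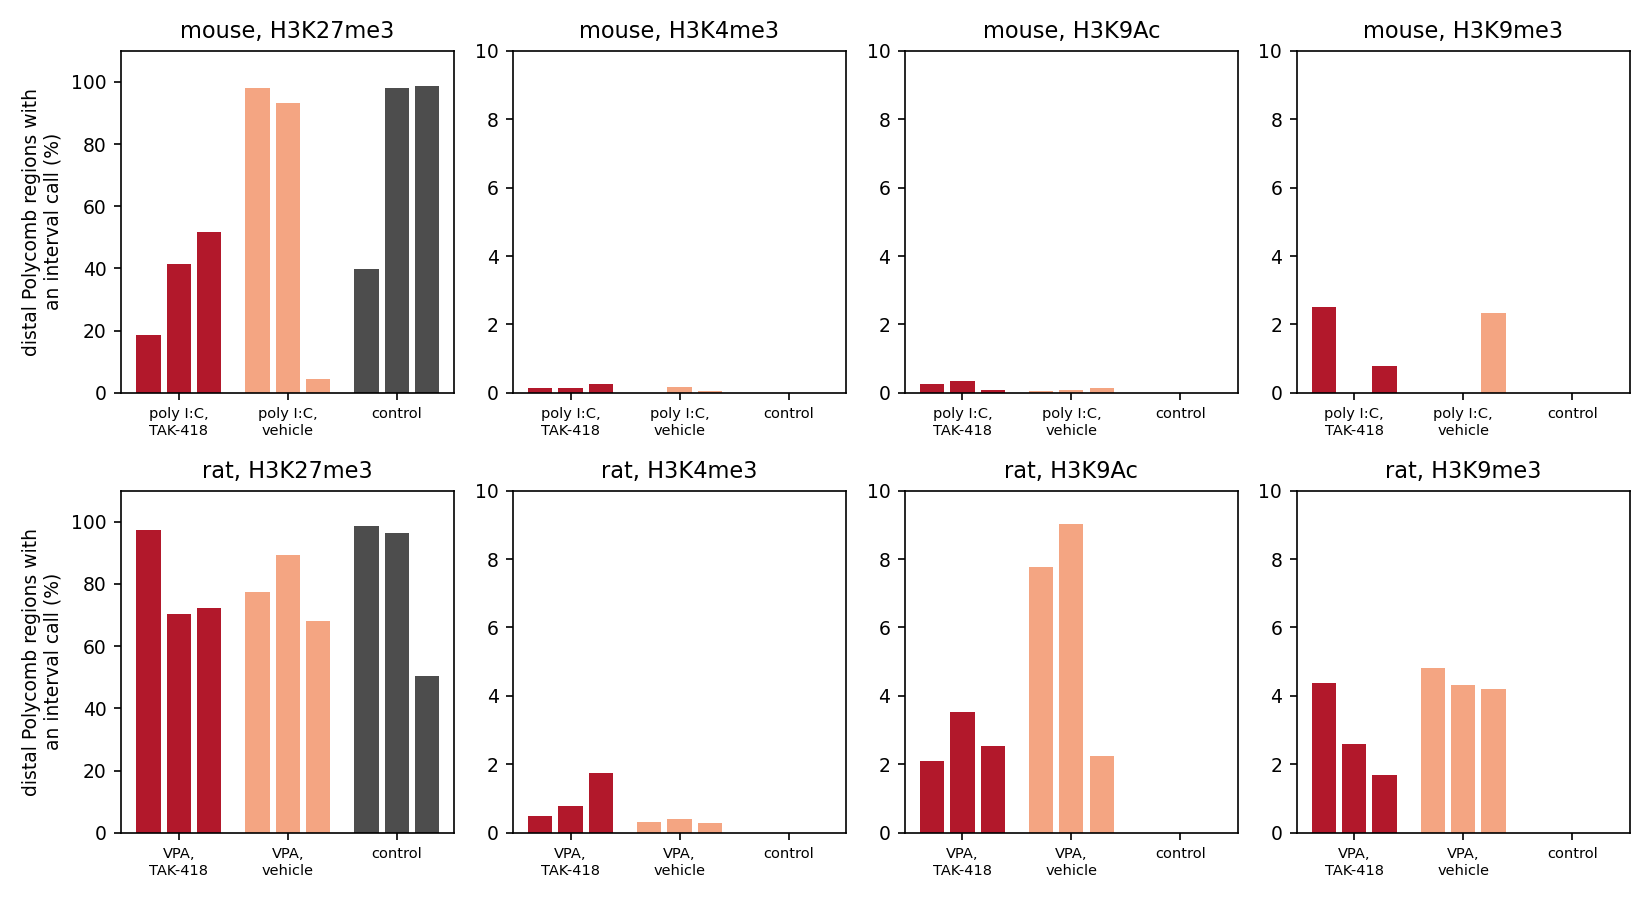
Share of distal Polycomb regions with an interval call (y axis, %) in each library, for 4 marks in mouse (top) and rat (bottom), with TAK-418 bars left, vehicle in the middle and control right; the other marks have an axis to 10%. H3K27me3 is called at 4.60% to 97.9% of mouse members among vehicle libraries, and the controls of the other 3 marks are at 0 by the choice of regions.

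TAK-418 against vehicle was the comparison the choice of regions left untouched, and it asks whether LSD1 inhibition altered the marks in exposed animals. In mouse H3K27me3 no region passed: limma with Benjamini-Hochberg adjustment at 0.05 called 0 of 2241 members tested, against 0% of all 9238 regions, and 4 members had an unadjusted p under 0.05. The median log2 change of members was -0.46, equal to the -0.46 of all regions tested, and all 2241 were lower with TAK-418. Without the filter the median change was -0.45 for members and -0.19 for all 60110 regions. The median standard error of the members tested was 0.356. The smallest adjusted p was 0.321, reached among others by an intergenic region on chromosome X with 1.98, 2.45 and 2.35 in TAK-418 libraries and 6.64, 4.90 and 1.73 in vehicle libraries (chrX:11549000-11557599, change -0.61 ± 0.294, SE). Here too 1 vehicle library lay below all TAK-418 libraries.

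The count of members called changed when that library was left out, and why the vehicle libraries differed was not tested. Without vehicle library 3, in which the mark was called at 104 members, all 2241 members tested passed as lower (median change -0.82), and so did 9229 of 9232 regions of any kind (100% of those tested after rounding). After subtracting each library's median the members' median change was -0.00, and after quantile normalization 0.00, with 0 called each time. The median change of all regions tested was -0.82 without that library.

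In rat H3K27me3 limma called 0 of 4538 members tested, against 0% of 15480 regions, and 0 members had an unadjusted p under 0.05. The median change was 0.14 for members and 0.11 for all regions tested, with a median standard error of 0.343; 4297 members were higher and 241 lower with TAK-418. Leaving out single libraries moved the members' median between -0.14 and 0.30. The largest change among the smallest p-values was at a short region 11201 bp from the promoter region of Ctsb and Fdft1 (chr15:50066000-50066799), with 11.4, 7.00 and 7.32 in TAK-418 libraries and 3.95, 7.36 and 4.46 in vehicle libraries (0.62 ± 0.435, SE, limma adjusted p = 1). The groups overlapped by 1 library there.

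**Figure D5:**
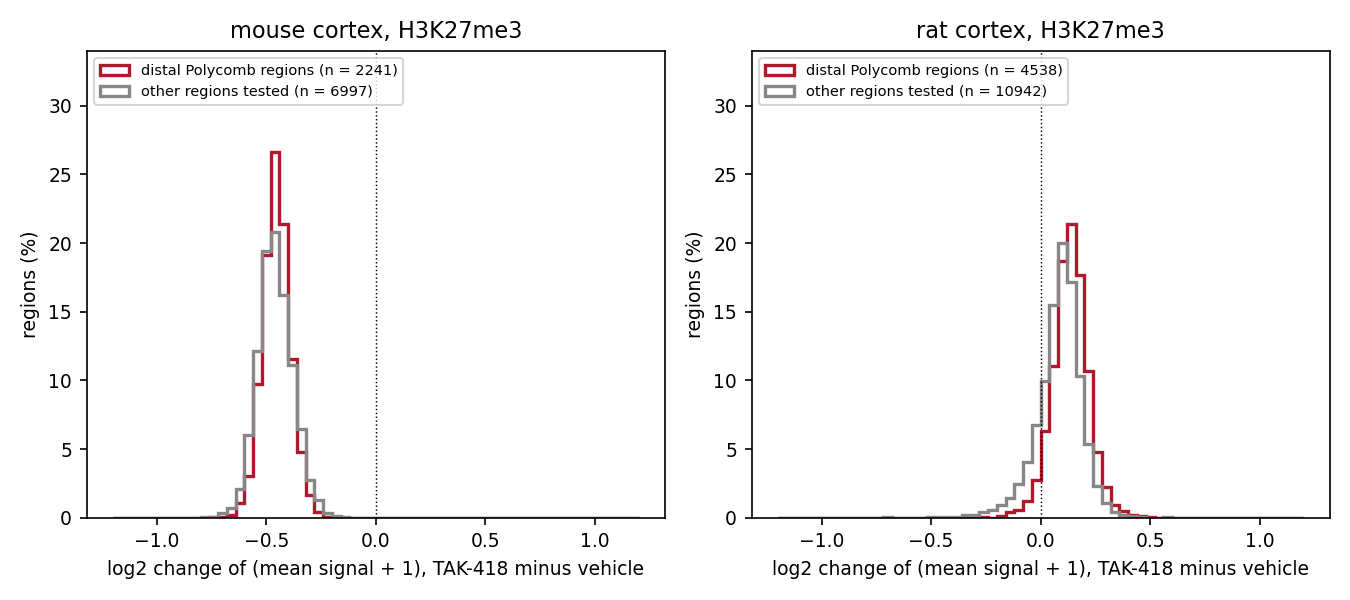
Distribution of the log2 change of (mean signal + 1) in H3K27me3, TAK-418 minus vehicle (x axis), as a share of regions (y axis, %), for distal Polycomb regions (red) and all other regions tested (grey), mouse left and rat right. Both curves sit near -0.46 in mouse, and in rat the members' median is 0.14 against 0.11 for all regions tested; no region passed limma in either species.

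H3K4me3 calls stayed rare at these regions. In mouse 3, 3 and 6 members had a call in TAK-418 libraries and 0, 4 and 1 in vehicle libraries. Over all mouse regions the calls numbered 12250, 11822 and 12207 with TAK-418 and 12041, 12126 and 11803 with vehicle. In rat 22, 36 and 80 had one in TAK-418 libraries and 15, 18 and 13 in vehicle libraries, so the 3 TAK-418 counts lay above the 3 vehicle counts. The counts over all rat regions had the same order, with 13894, 14149 and 14406 in TAK-418 libraries and 13876, 13857 and 13577 in vehicle libraries. Only members with a call in at least 3 of 9 libraries could be tested, 1 in mouse and 18 in rat; having no control call, they passed through the exposed libraries. In mouse the tested member was not called (0 at an unadjusted p under 0.05), against 0% of 12439 regions.

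In rat limma called 1 of 18, higher with TAK-418, against 0.224% of 14296 regions (32, all higher). Since no control call was allowed, these 18 had reached the filter through exposed libraries alone, and 30 members were called in at least 2 of 3 TAK-418 libraries against 8 in vehicle libraries, so nothing is read from that share. Of all rat regions, 14017 (19.2%) and 13727 (18.8%) were called in at least 2 of 3 libraries of these groups. The called region (chr2:206149400-206161799, 12399 bp, no listed gene, nearest promoter region Fcrl3, a gene of B cells) had H3K4me3 of 3.95, 2.68 and 5.01 in TAK-418 libraries, 2.51, 2.32 and 1.56 in vehicle libraries and 1.88, 1.96 and 2.09 in controls. The TAK-418 values lay above all vehicle values, a change of 0.63 ± 0.137 (SE, limma adjusted p = 0.00633). As this region too reached the filter through exposed libraries alone, its p-value is not read as support for a change. Only 6 of the 9 fits that leave out 1 library tested this region, with changes of 0.49 to 0.72. The call was lost after median centring, after quantile normalization, without the filter and on the highest signal. It was also absent when any of 5 exposed libraries was left out, for some of them because the region missed the filter. Of all regions, 0% passed in the first 4 of these settings, 0% without vehicle library 2, 0.105% without vehicle library 3, and 0.0634%, 1.21% and 0.00709% without TAK-418 library 1, 2 and 3. With no filter limma called 0 of the 4603 members, against 0% of 72824 regions. An unadjusted p under 0.05 was found for 238 members, and the count over all regions at that threshold was not taken. The median change was 0.04 for members and 0.05 for all regions.

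Called for H3K4me3 in 5 of 6 exposed rat libraries, and for H3K9Ac in 5, was a region inside Rara, the retinoic acid receptor alpha gene (chr10:86673200-86673999, 799 bp, 1201 bp from a marked promoter region). Its H3K4me3 was 14.9, 9.24 and 8.83 in TAK-418 libraries, 8.44, 12.0 and 6.24 in vehicle libraries and 1.67, 5.68 and 6.18 in controls. In mouse 1 intergenic region with its nearest promoter region at Ets1 (chr9:32931400-32946799) was called in 3 exposed libraries, with 2.07, 2.32 and 2.01 in TAK-418 libraries, 2.02, 1.86 and 2.30 in vehicle libraries and 2.80, 2.30 and 2.04 in controls. The controls, none of them called, were not lower there.

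H3K9Ac calls at members can lie in exposed libraries alone, since the choice of regions allowed none in controls. In TAK-418 libraries 97, 162 and 117 of the 4603 members had a call and in vehicle libraries 358, 416 and 103. Over all rat regions the calls numbered 16895, 16952 and 16336 in TAK-418 libraries, 18228, 18703 and 15683 in vehicle libraries and 15322, 14003 and 14247 in controls. A call in at least 2 of 3 libraries was found at 93 members with TAK-418 and 281 with vehicle. Of all rat regions, 16466 (22.6%) and 17476 (24.0%) had one. In mouse 6, 8 and 2 members had a call with TAK-418 and 1, 2 and 3 with vehicle. The mouse libraries as a whole called 12002, 11948 and 10369 regions with TAK-418, 11404, 10423 and 11273 with vehicle and 13767, 13040 and 11874 in controls. To see how far the choice of regions sets such counts, the same rule was applied to the vehicle libraries in place of controls, a comparison added after seeing the data. In rat a vehicle H3K9Ac call was found at 521 members (11.3%), and a control H3K9Ac call at 15 (0.382%) of the 3922 regions taken through vehicle libraries, 2951 of which were members. In mouse the order was the other way: 5 members (0.221%) had a vehicle call, and 121 (3.06%) of the 3948 regions taken through vehicle libraries, 2018 of which were members, had a control call. These counts carry no test.

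The rat median member had H3K9Ac of 1.93, 2.04 and 1.65 in TAK-418 libraries, 2.23, 2.53 and 1.63 in vehicle libraries and 1.56, 1.47 and 1.51 in controls. All exposed values lay above the control values, but the choice of regions, which allowed no control call, favours low control values. The exposed medians over all rat regions also lay above those of controls. They were 1.65, 1.68 and 1.43 with TAK-418, 1.72, 1.87 and 1.40 with vehicle and 1.37, 1.34 and 1.36 in controls. Distal regions without H3K27me3 had medians of 1.20 to 1.38, 1.17 to 1.40 and 1.15 to 1.17 in the same groups. In TAK-418 against vehicle limma called 0 of 183 members tested, against 9.58% of 17679 regions (9.56% lower, 0.017% higher). An unadjusted p under 0.05 was found for 18 of the 183, and the smallest adjusted p was 0.0517. The 183 had reached the filter through exposed libraries alone, chiefly vehicle ones, so neither this share nor those in the other settings is read against all regions. With no filter limma called 0 of the 4603 members, against 0% of 72824 regions. There 165 members had an unadjusted p under 0.05, and the count over all regions at that threshold was not taken. The median change was -0.12 for members and -0.07 for all regions.

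This comparison turned on the scaling and on 1 library. After median centring 21 members were called, all of them higher with TAK-418 (31.5% of all regions were called), while without vehicle library 3 limma called 154 of 160 tested, all lower (88.6% of all regions). On the highest signal 8 members were called lower (43.4% of all regions) and with a constant prior 1 (22.3%). At Trpc7, a cation channel gene, a region called in all 6 exposed libraries (chr17:10451800-10459999) had 4.36, 4.99 and 3.24 in TAK-418 libraries, 7.12, 7.89 and 4.16 in vehicle libraries and 2.81, 2.85 and 2.69 in controls. At Cpne2, a copine gene (chr19:10930400-10939599), the values were 4.40, 4.42 and 3.51 in TAK-418 libraries, 6.31, 6.77 and 3.39 in vehicle libraries and 2.58, 2.44 and 2.69 in controls. At both, 2 of 3 vehicle libraries stood above every TAK-418 library and vehicle library 3 did not.

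In mouse limma called 0 of 2 members tested for H3K9Ac (0 with an unadjusted p under 0.05), against 0% of 12747 regions. A region inside Cdh4, a cadherin of retina and brain (chr2:179816600-179840799), had H3K9Ac of 3.96, 3.87 and 2.10 in TAK-418 libraries, 3.56, 2.10 and 3.08 in vehicle libraries and 4.97, 5.34 and 3.55 in controls. The controls had no call there and yet held the 2 highest values.

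H3K9me3 was called in rat at 202, 120 and 78 members in TAK-418 libraries and at 221, 199 and 194 in vehicle libraries; over all rat regions the calls numbered 29883, 17530 and 19229 with TAK-418 and 24812, 28518 and 23359 with vehicle. In mouse it was called at 57, 0 and 18 with TAK-418 and at 0, 0 and 53 with vehicle. The mouse libraries as a whole called 21011, 284 and 15917 regions with TAK-418 and 446, 251 and 24761 with vehicle. In rat limma called 0 of 148 members tested, against 0% of 26084 regions, with 0 members at an unadjusted p under 0.05; these 148 too had passed through exposed libraries alone. With no filter it called 0 of 4603 members (42 at an unadjusted p under 0.05), and the median change was 0.03 for members and 0.02 for all regions. In mouse it called 0 of 2, against 0% of 17543 regions, again with 0 at an unadjusted p under 0.05. A rat region called in all 6 exposed libraries lay upstream of Os9, an endoplasmic reticulum lectin gene (chr7:70592600-70600599), with 4.43, 3.38 and 3.61 in TAK-418 libraries, 3.96, 3.92 and 2.94 in vehicle libraries and 1.94, 2.06 and 1.95 in controls. The exposed groups overlapped there.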

How the data were processed

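Signal of 4 histone marks was analysed in 72 ChIP-seq libraries of mouse and rat cortex; 2 pooled inputs are not in the tables and were not used. The submitters' processing notes name BWA 0.7.12 and the builds mm10 and rn5. How intervals were called and how libraries were scaled to each other is not given in the sources used here. The deposited values are, per the file headers, signal: the mean and the highest over each merged region of 1 table per species, with an interval call per library. The mean was 0 or at least 1. Without counts, the depth per library and its counting error could not be given. All library columns matched a sample (0 unmatched).

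The members and the 15 gene lists were chosen with earlier results of these data known. Regions with an interval in at least 3 of the 9 libraries of a mark were tested on log2(mean signal + 1) with limma 3.58.1 (R 4.3.3; mean-dependent prior, robust), 1 model per mark and species over 9 libraries, adjusted by Benjamini-Hochberg over all regions tested. A fold on this scale understates changes of weak regions. The script was tested on simulated data. Named regions were the 10 with the highest H3K27me3 in exposed libraries, those with the smallest p, those most often called for another mark, the 2 longest and up to 3 per gene list, by species; not all are given. Distances were measured between region edges. Alternatives were 2 rescalings, another pseudocount, 2 other filters, the highest signal, another prior, the 6 libraries alone, a replicate block and leaving out each library.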

Additional observations from a re-analysis of the deposited data

How the results depend on the processing

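In the mouse, the count of members called for H3K27me3 was 0 to 2241 over the 9 fits that leave out 1 library; 2241 was reached without vehicle library 3. For rat H3K4me3 the 1 member called became 0 after median centring, after quantile normalization, without the filter, with a mean signal filter, on the highest signal and with a constant prior. The count was 0 to 1 when 1 library was left out, and only 6 of those 9 fits tested that member. For rat H3K9Ac the 0 members called became 21 after median centring (all higher), 8 on the highest signal (all lower), 1 with a constant prior and 0 to 154 when 1 library was left out, 154 without vehicle library 3. The cause was not tested. Rat H3K27me3 and H3K9me3 and mouse H3K4me3, H3K9Ac and H3K9me3 had 0 members called in every setting run. The number of members was 855 to 2689 in mouse and 2155 to 4788 in rat when 1 control library was left out, and 825 and 2090 when 3 of 3 control calls were required; these settings were chosen after seeing the data. Same-numbered TAK-418 and vehicle libraries did not deviate together throughout, as the lowest correlation per mark ran from -0.601 to -0.0822. Other pairs were positive, and mouse H3K9me3 had -0.37, 0.494 and 0.306. With 3 libraries a group, whether the numbers pair the samples cannot be decided from this. A replicate block gave 14 members called for rat H3K9Ac, all lower (6586 of 17679 regions), and changed no other count of members. Region calls limit what can be tested for the other marks, since few members have any.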
